A study of Mus musculus with 17 samples.

Results

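The superoxide dismutases, catalase, the glutathione peroxidases and their partners were followed at the RNA level in mouse brain after a stroke-like injury. The family was set as 10 genes, namely Sod1, Sod2, Sod3, Cat, Gpx1, Gpx3, Gpx4, Gsr, Prdx1 and Prdx2, and members were the probe sets whose gene symbol is 1 of these. Of 12488 probe sets on the array, 12 carried the symbol of a member alone and covered 9 of the 10 genes. Prdx1 was represented only on 2 probe sets that it shares with Gm21399, so these are given as shared and were not counted. No further probe set was found under an older name. Probe set 100330_at of Prdx2 lay at the floor on all 17 arrays, which left 11 member probe sets to test.

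These enzymes work in sequence. Superoxide dismutases turn superoxide into hydrogen peroxide, and catalase, the glutathione peroxidases and the peroxiredoxins remove the peroxide. Glutathione peroxidases spend reduced glutathione, which glutathione reductase regenerates with NADPH, while peroxiredoxins draw on thioredoxin. In brain, oxygen returning after an occlusion is a known source of superoxide. AEOL 10150, which the labels call a catalytic antioxidant, carries out reactions of this kind itself, and the arrays allow the RNA of the endogenous enzymes to be compared with and without it.

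RNA came from white and grey matter of the middle cerebral artery territory. The treated ischemic pools (3 pools of 6 brains) came from mice with 1 h of ischemia, intravenous AEOL 10150 and 6 h of reperfusion. The single treated brains (5 arrays of 1 brain each, numbered 11, 12, 13, 14 and 16) had the same treatment. The ischemic pools (3 pools of 6 brains) had 1 h of ischemia and 6 h of reperfusion, and the labels do not say whether those mice received saline. The drug control pools (3 pools of 6 brains) were collected 6 h after AEOL 10150 and the control pools (3 pools of 6 brains) 6 h after saline, both without ischemia. No label gives the strain, age, sex or dose. A pool averages 6 brains, so spread between pools is not spread between animals, and the labels do not state that pools came from separate experiments. Titles and descriptions disagree on 2 arrays. The description of drug control pool 1 names saline in place of the drug, and that of treated ischemic pool 1 omits the drug. Groups here follow the titles. The description of treated ischemic pool 2 calls it a first replicate, and the title of single brain 11 carries the number 4.

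Values are intensities, brought to a trimmed mean of 2500 on every array, floored at 109.5 and given as log2 (floor 6.77). The deposited values of 10 arrays already had that trimmed mean. The 5 single brains and treated ischemic pools 2 and 3 had been deposited on other scales, with trimmed means of 129 to 210. Brain cell markers were present: 9 of 9 neuronal and 7 of 7 astrocyte markers on the array were above the floor on all arrays, as were 5 of 6 oligodendrocyte markers. The ischemia labels were checked with 3 stress-induced genes. Over both drug arms the heat shock gene Hspa1b was 24.1-fold higher, the transcription factor gene Fos 8.94-fold higher and the transcription factor gene Atf3 8.96-fold higher in ischemic than in non-ischemic pools (limma adjusted p = 0.000318, 0.000694 and 2.99e-05). Pairs of arrays correlated with Pearson's r of 0.896 to 0.980, and no pair was identical. Arrays have no read depth, and their number limits the precision. Levels are compared within a probe set only, since probe sets differ in brightness for reasons of design.

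The promoters of the enzymes whose pooled group means lay closest together (Sod1, over a range of 0.10 log2) and farthest apart (Gpx3, over a range of 0.63 log2) are shown first, as 300 bases from RefSeq (GRCm38.p6) running from 250 bases before to 50 bases after the start. Capitals mark matches, on either strand, to the antioxidant response element core TGACNNNGC, the GC box GGGCGG and the CCAAT box. Sod1 lies on the plus strand at chr16:90220512-90220811, and Gpx3 on the plus strand at chr11:54902604-54902903.
Sod1: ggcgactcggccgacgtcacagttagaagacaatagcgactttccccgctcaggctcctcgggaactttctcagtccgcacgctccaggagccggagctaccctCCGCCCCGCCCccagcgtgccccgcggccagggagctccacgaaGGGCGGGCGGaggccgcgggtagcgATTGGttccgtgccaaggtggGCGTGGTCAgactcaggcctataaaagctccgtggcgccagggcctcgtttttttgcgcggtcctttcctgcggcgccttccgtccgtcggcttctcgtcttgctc
Gpx3: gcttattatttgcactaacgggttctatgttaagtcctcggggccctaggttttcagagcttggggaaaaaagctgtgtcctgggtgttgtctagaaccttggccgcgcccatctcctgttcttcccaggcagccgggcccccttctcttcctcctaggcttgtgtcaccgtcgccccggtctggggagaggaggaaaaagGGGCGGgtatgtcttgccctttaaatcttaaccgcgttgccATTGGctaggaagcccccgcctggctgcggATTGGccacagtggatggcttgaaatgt
The Sod1 promoter held 1 match to the antioxidant response element core, 4 to the GC box and 1 to the CCAAT box. The Gpx3 promoter held no match to the first, 1 to the GC box and 2 to the CCAAT box. Promoter entries matched 8 of the 10 genes, with 11 promoters in all. The antioxidant response element core was found in 2 of these 8 genes (Sod1 and Prdx1) and 2 of 11 promoters. It was found in 12.4% of 32851 promoters of the same length. The GC box was found in 8 of 8 genes and 10 of 11 promoters, against 35.7% of all promoters. The CCAAT box was found in 5 of 8 genes and 7 of 11 promoters, against 37.4%. No motif was searched for in Sod3 or Gsr.

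None of the 11 member probe sets passed in any of the 9 comparisons made. For ischemia over both drug arms, 0 of 11 passed in limma at an adjusted p under 0.05, where 46 of 10259 probe sets (0.448%) passed. None of the 11 had an unadjusted p under 0.05 (4.92% of all probe sets) or groups without overlap (1.11%). Differences of the 6 ischemic minus the 6 non-ischemic pools ran from -0.25 to 0.21 log2 with a median of 0.07, against a median of 0.014 over all probe sets tested. The 95% intervals of the 11 differences lay within -1.02 and 0.70, or 0.494- to 1.62-fold. For the drug over both ischemia arms, 0 of 11 and 0 of 10259 probe sets (0%) passed, with 0 members and 169 probe sets (1.65%) at an unadjusted p under 0.05, and 0 members without overlap (0.0292% of all). Differences of the 6 drug-treated minus the 6 undrugged pools ran from -0.07 to 0.15 log2, with intervals of 0.575- to 1.66-fold. In bulk tissue, fewer cells of a type and less RNA per cell cannot be told apart.

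**Figure D1:**
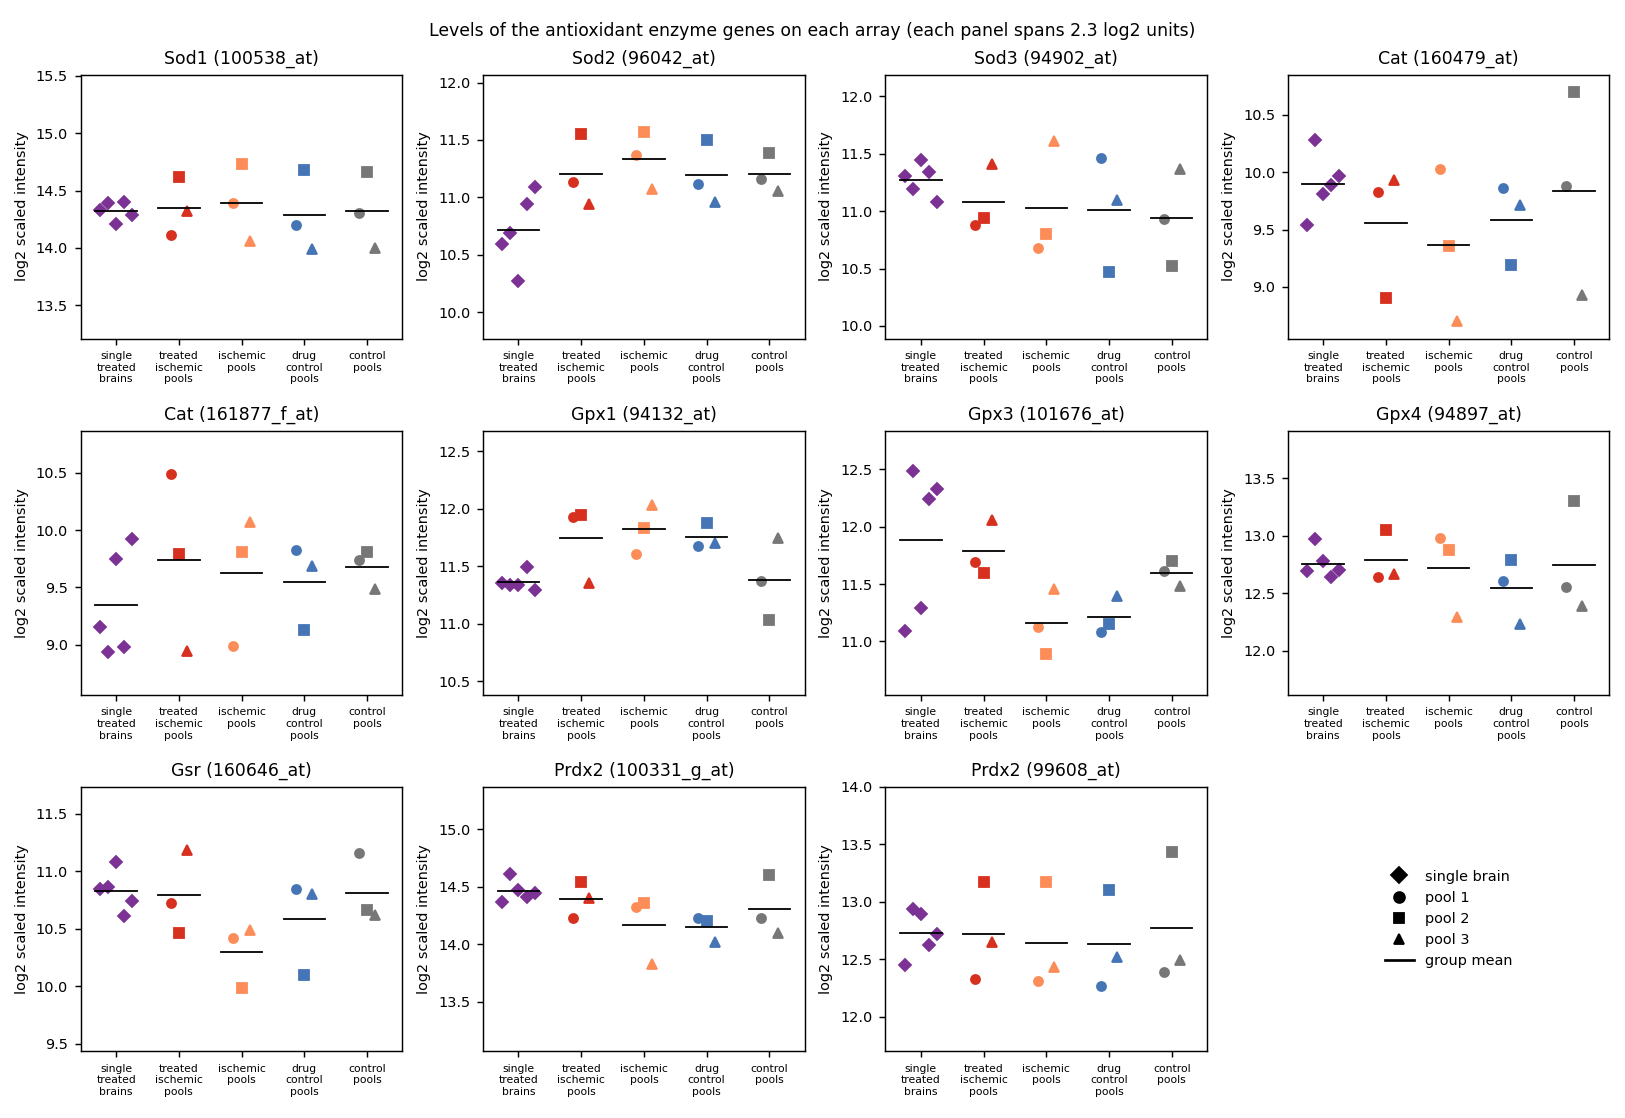
Log2 scaled intensity (vertical axes, each spanning 2.3 log2 units) of the 11 member probe sets above the floor on all 17 arrays, by group, with symbols for the replicate number and lines for group means. Sod1 group means lay within 0.10 of each other in the pools while its replicates spread by up to 0.69, and Gpx3 had the treated ischemic pools above the ischemic pools without overlap.

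**Figure D2:**
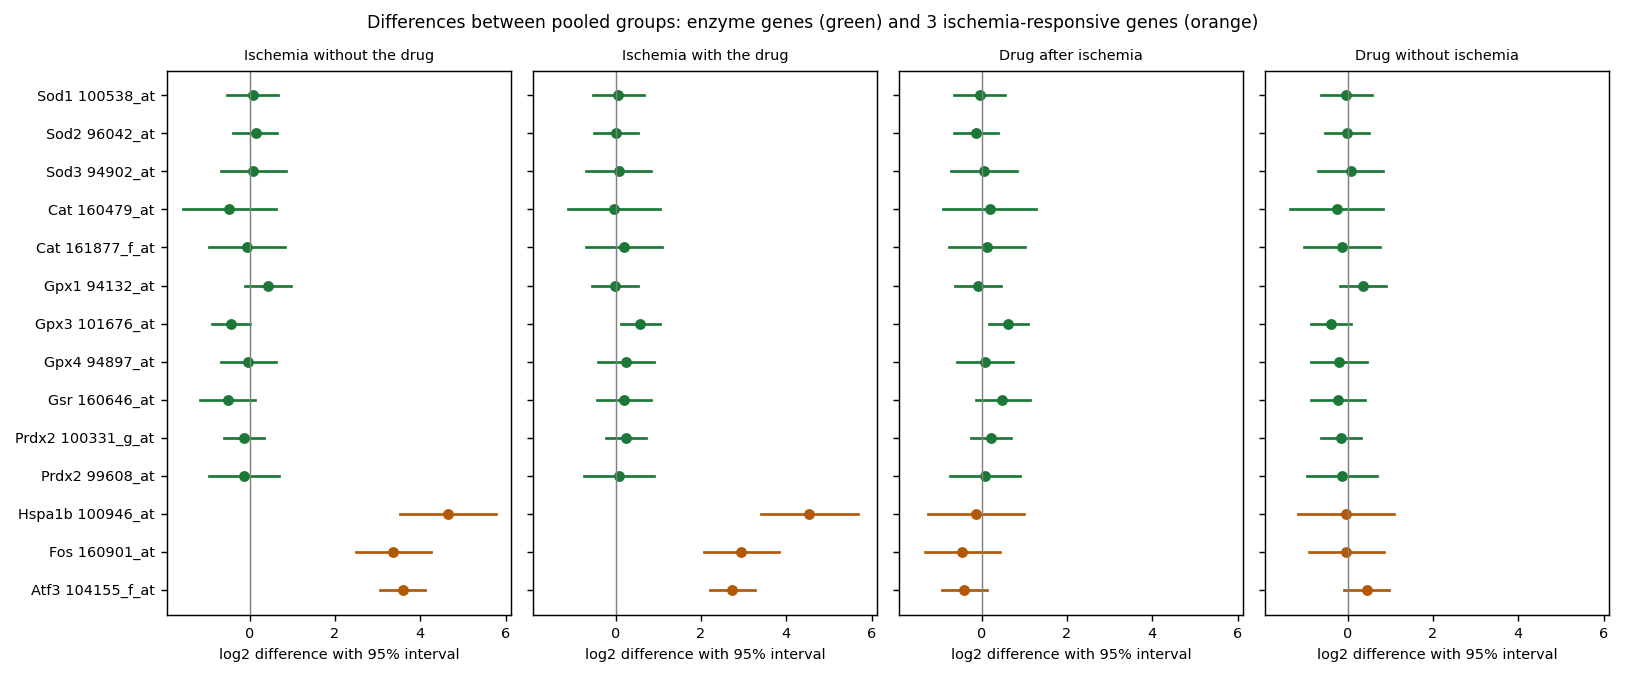
Log2 differences with 95% intervals from limma (horizontal axes) for the 11 member probe sets in green and Hspa1b, Fos and Atf3 in orange, in 4 comparisons of 3 pools against 3. Enzyme differences lie between -0.51 and 0.63, while the 3 stress genes sit between 2.74 and 4.64 in the 2 ischemia comparisons.

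The dismutases did not pass in any comparison. Sod1, the cytosolic copper-zinc enzyme (100538_at; gene at chromosome 16, 90220762 to 90226333), read 14.11, 14.62 and 14.32 in treated ischemic pools 1 to 3. It read 14.39, 14.73 and 14.06 in ischemic, 14.20, 14.68 and 13.99 in drug control and 14.30, 14.66 and 14.00 in control pools. The 4 groups overlapped, pool 2 was the highest in each, and pool 3 was the lowest in all but the treated ischemic group. Over both drug arms, ischemic minus non-ischemic pools differed by 0.07 log2 (SE 0.19, 95% interval -0.36 to 0.49), and drug-treated minus undrugged pools by -0.04 (SE 0.19, interval -0.46 to 0.39), both with a limma adjusted p of 1. Those intervals leave out the replicate number. Ischemic minus control pools of the same number differed in Sod1 by 0.09, 0.07 and 0.06 log2 for numbers 1 to 3, all of 1 sign. With the replicate number as a block the mean difference was 0.07 (SE 0.15, 95% interval -0.27 to 0.41, limma unadjusted p = 0.65, adjusted p = 0.929). Sod2, the mitochondrial manganese enzyme (96042_at; chromosome 17, 13007839 to 13018119), averaged 11.21 ± 0.31 (SD, n = 3 as for Sod3) in treated ischemic, 11.34 ± 0.26 in ischemic, 11.19 ± 0.28 in drug control and 11.20 ± 0.17 in saline control pools. Sod3, the secreted enzyme bound to the extracellular matrix (94902_at; chromosome 5, 52363804 to 52369738), averaged 11.08 ± 0.29, 11.03 ± 0.51, 11.01 ± 0.50 and 10.94 ± 0.42 in the same order of groups. Same-numbered ischemic minus control pools differed by 0.21, 0.18 and 0.01 log2 in Sod2 and by -0.26, 0.28 and 0.25 in Sod3. With the replicate number as a block the mean differences were 0.14 (SE 0.13, limma adjusted p = 0.843) and 0.09 (SE 0.25, adjusted p = 0.948).

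Catalase, the peroxisomal enzyme that splits hydrogen peroxide without glutathione, was read by 2 probe sets (chromosome 2, 103453904 to 103485153). Probe set 160479_at ran from 8.70 in ischemic pool 3 to 10.70 in control pool 2, and 161877_f_at from 8.95 in treated ischemic pool 3 to 10.49 in treated ischemic pool 1. These were the widest spreads over the pools among the members (SD over 12 pools 0.58 and 0.45). The probe sets disagreed in sign for ischemia over both arms, at -0.25 for 160479_at and 0.07 for 161877_f_at. Neither difference passed. Red cells are rich in catalase and peroxiredoxin 2, and 4 of 10 red cell markers were on the array. Their summed log2 intensity was 13.01 to 13.46 in ischemic pools and 11.65 to 12.15 in control pools. It was 11.79 to 13.23 in treated ischemic pools and 11.55 to 12.36 in drug control pools. That sum rests on the haemoglobin gene Hba-a1, the 1 marker of the 4 above the floor on all arrays. The anion exchanger gene Slc4a1 stood the other way, at 7.74, 6.77 and 6.77 in ischemic and 6.92 to 8.31 in control pools. Alas2 and Epb42 were at the floor in pools of both groups. The part of red cells in the enzyme levels was not tested.

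Gpx1, the abundant cytosolic and mitochondrial glutathione peroxidase (94132_at; chromosome 9, 108339080 to 108340342), read 11.93, 11.95 and 11.35 in treated ischemic pools and 11.61, 11.83 and 12.03 in ischemic pools. It read 11.68, 11.88 and 11.70 in drug control pools and 11.37, 11.03 and 11.75 in control pools. Control pools 1 and 2 were low, and control pool 3 overlapped the other groups. Ischemic minus control pools differed by 0.44 log2 (SE 0.24, 95% interval -0.10 to 0.98, limma adjusted p = 1), and drug control minus control pools by 0.37 (SE 0.24, interval -0.17 to 0.91, adjusted p = 1). Without control pool 2 these were 0.26 and 0.19. Gpx4, which reduces lipid hydroperoxides in membranes (94897_at; chromosome 10, 80047166 to 80056439), averaged 12.79 ± 0.23 in treated ischemic, 12.72 ± 0.37 in ischemic, 12.54 ± 0.28 in drug control and 12.75 ± 0.49 in saline control pools (SD, n = 3 each).

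Gsr, glutathione reductase (160646_at; chromosome 8, 33653238 to 33698162), read 10.72, 10.46 and 11.19 in treated ischemic pools and 10.42, 9.98 and 10.49 in ischemic pools. It read 10.85, 10.10 and 10.80 in drug control pools and 11.16, 10.66 and 10.62 in control pools. All ischemic pools were below all control pools, while the treated ischemic and drug control pools overlapped. Ischemic minus control pools differed by -0.51 log2 (SE 0.29, 95% interval -1.15 to 0.12, limma adjusted p = 1), and treated ischemic minus ischemic pools by 0.49 (SE 0.29, interval -0.14 to 1.13, adjusted p = 1). The first was -0.34 without control pool 1, and the second 0.29 without treated ischemic pool 3. Those intervals leave out the replicate number. Ischemic minus control pools of the same number differed by -0.73, -0.68 and -0.12 log2 for numbers 1 to 3. With the replicate number as a block their difference was -0.51 (SE 0.21, 95% interval -0.99 to -0.04, limma unadjusted p = 0.0366, adjusted p = 0.729). The block also took in the treated ischemic pools, which the numbers were not taken to pair.

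The thioredoxin-dependent peroxidase Prdx2 (chromosome 8, 84969622 to 84974811) averaged 14.39 ± 0.15 in treated ischemic, 14.17 ± 0.30 in ischemic, 14.15 ± 0.11 in drug control and 14.31 ± 0.26 in saline control pools on 100331_g_at (SD, n = 3 each). On 99608_at it averaged 12.72 ± 0.42, 12.64 ± 0.47, 12.63 ± 0.43 and 12.77 ± 0.57 in those groups. Same-numbered ischemic minus control pools differed by -0.08, -0.26 and -0.06 log2 on 99608_at and by 0.10, -0.24 and -0.27 on 100331_g_at. With the replicate number as a block the mean differences were -0.13 (SE 0.13, limma adjusted p = 0.85) and -0.14 (SE 0.16, adjusted p = 0.866). The third probe set, 100330_at, was at the floor throughout, so the probe sets of this gene disagree on whether it is detected. On the 2 probe sets shared by Prdx1, a close cytosolic relative (chromosome 4, 116685599 to 116700000), and Gm21399, pooled levels ran from 13.95 to 14.51 (97055_s_at) and from 13.02 to 13.93 (97758_at). Neither passed in any comparison, and the signals of the 2 genes cannot be told apart on them.

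Gpx3, the secreted glutathione peroxidase of plasma and extracellular fluid (101676_at; chromosome 11, 54902854 to 54910387), was the member whose level moved most with group, without passing over all probe sets. It read 11.69, 11.60 and 12.06 in treated ischemic pools, against 11.13, 10.89 and 11.46 in ischemic pools. It read 11.08, 11.15 and 11.40 in drug control pools, against 11.61, 11.70 and 11.48 in control pools. The treated ischemic pools lay above the ischemic and the drug control pools, and the ischemic and the drug control pools lay below the control pools, all without overlap. The order of group means was treated ischemic 11.79, control 11.59, drug control 11.21 and ischemic 11.16, and the first pair and the last pair of that order overlapped.

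Without the drug, ischemic minus control pools differed in Gpx3 by -0.43 log2 (0.740-fold, SE 0.21, 95% interval -0.89 to 0.02, limma adjusted p = 1). With the drug, treated ischemic minus drug control pools differed by 0.58 (1.49-fold, SE 0.21, interval 0.12 to 1.04, adjusted p = 1). Treated ischemic minus ischemic pools differed by 0.63 (1.54-fold, SE 0.21, interval 0.17 to 1.09, adjusted p = 1). Drug control minus control pools differed by -0.39 (0.764-fold, SE 0.21, interval -0.85 to 0.07, adjusted p = 1). These 4 comparisons share their groups in pairs and are not independent of each other. The difference between the 2 ischemia differences was 1.01 log2 (SE 0.29, interval 0.37 to 1.66, unadjusted p = 0.0058, limma adjusted p = 1).

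Counts of members in these 5 comparisons stand beside those of the whole array as follows. In ischemia without the drug, 0 of 11 members passed against 22 of 10259 probe sets (0.214%, and 35 with the replicate block), and 2 of 11 (Gpx3 and Gsr) had groups without overlap against 7.08% of all probe sets. In ischemia with the drug, 0 of 11 passed against 9 probe sets (0.0877%), and 1 of 11 (Gpx3) had no overlap against 7.39%. In the drug after ischemia, 0 of 11 passed against 1 probe set (0.00975%), and 1 of 11 (Gpx3) had no overlap against 3.82%. In the drug without ischemia, 0 of 11 passed against 1 probe set (0.00975%, and 0 with the replicate block), and 1 of 11 (Gpx3) had no overlap against 4.65%. In the difference between the ischemia differences, 0 of 11 and 0 of 10259 probe sets (0%) passed in limma, with 1 member (Gpx3) and 213 probe sets (2.08%) at an unadjusted p under 0.05. At that unadjusted threshold the other 4 comparisons held 0, 1, 1 and 0 members, each time Gpx3 where there was 1. The shares of all probe sets were 4.12%, 3.44%, 1.47% and 2.57%. Those counts leave out the replicate number. With it as a block, ischemia without the drug gave an unadjusted limma p of 0.0369 in Gpx3 and 0.0366 in Gsr. Both had an adjusted p of 0.729, and the share of all probe sets under 0.05 was not counted in that fit. Being lower without and higher with the drug, with no overlap in either arm, was found in 4 of 10259 probe sets (0.0390%), Gpx3 among them. That pattern was described from the values of Gpx3 itself, and no overlap with opposite directions either way was found in 11 probe sets (0.107%). An exact permutation test of 3 pools against 3 cannot go below p = 0.1, so none was made.

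Treated ischemic pool 1, the only treated pool deposited on the common scale and 1 of the arrays with conflicting labels, read 11.69 and lay above all ischemic and drug control pools. With the deposited scale as a block the difference of differences in Gpx3 was 0.92 (limma unadjusted p = 0.0356, adjusted p = 1), and with groups taken from the descriptions it was 0.73 (unadjusted p = 0.0871, adjusted p = 0.979). With those description groups ischemia without the drug came to -0.17 (unadjusted p = 0.46), in place of -0.43, and the drug without ischemia to -0.19 (unadjusted p = 0.496), in place of -0.39. Same-numbered ischemic minus control pools differed by -0.48, -0.80 and -0.02. Leaving out each pool in turn gave 0.88 to 1.16 for the difference of differences, and -0.58 to -0.30 for ischemia without the drug.

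The single treated brains split widely in Gpx3, at 11.09 in brain 11, 12.48 in brain 12, 11.29 in brain 13, 12.24 in brain 14 and 12.33 in brain 16. Brains 12, 14 and 16 were above every pool, and brains 11 and 13 were within the range of the ischemic and drug control pools. Of 10 markers of choroid plexus and meninges 7 were on the array, and 5 of the 7 (Ttr, Kl, Folr1, Ptgds and Dcn) were lowest in brain 11, as Gpx3 was. The thyroxine carrier gene Ttr, a defining choroid plexus marker, was at the floor in brain 11 and read 13.95, 12.82, 13.08 and 13.76 in brains 12, 13, 14 and 16. Kl, also high in choroid plexus, was at the floor in brain 11 only. Dcn, a meningeal matrix gene, read 11.34, 12.46, 11.36, 12.93 and 12.35 in brains 11, 12, 13, 14 and 16. Not all 7 followed Gpx3 over the 5 brains. Igf2 read 13.59, 13.29, 13.93, 14.18 and 14.09 in that order, lowest in brain 12, where Gpx3 was highest. Folr1 was highest in brain 13, at 10.60, and Aqp1 stayed within 8.85 and 9.60. Over all arrays 5 of the 7 were above the floor throughout. The summed log2 intensity of the 7 was 16.61 to 16.88 in treated ischemic pools, 16.49 to 17.11 in single brains, 16.56 to 16.77 in ischemic pools, 16.48 to 16.53 in drug control pools and 16.37 to 16.96 in control pools. The part of these tissues in the Gpx3 levels was not tested.

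**Figure D3:**
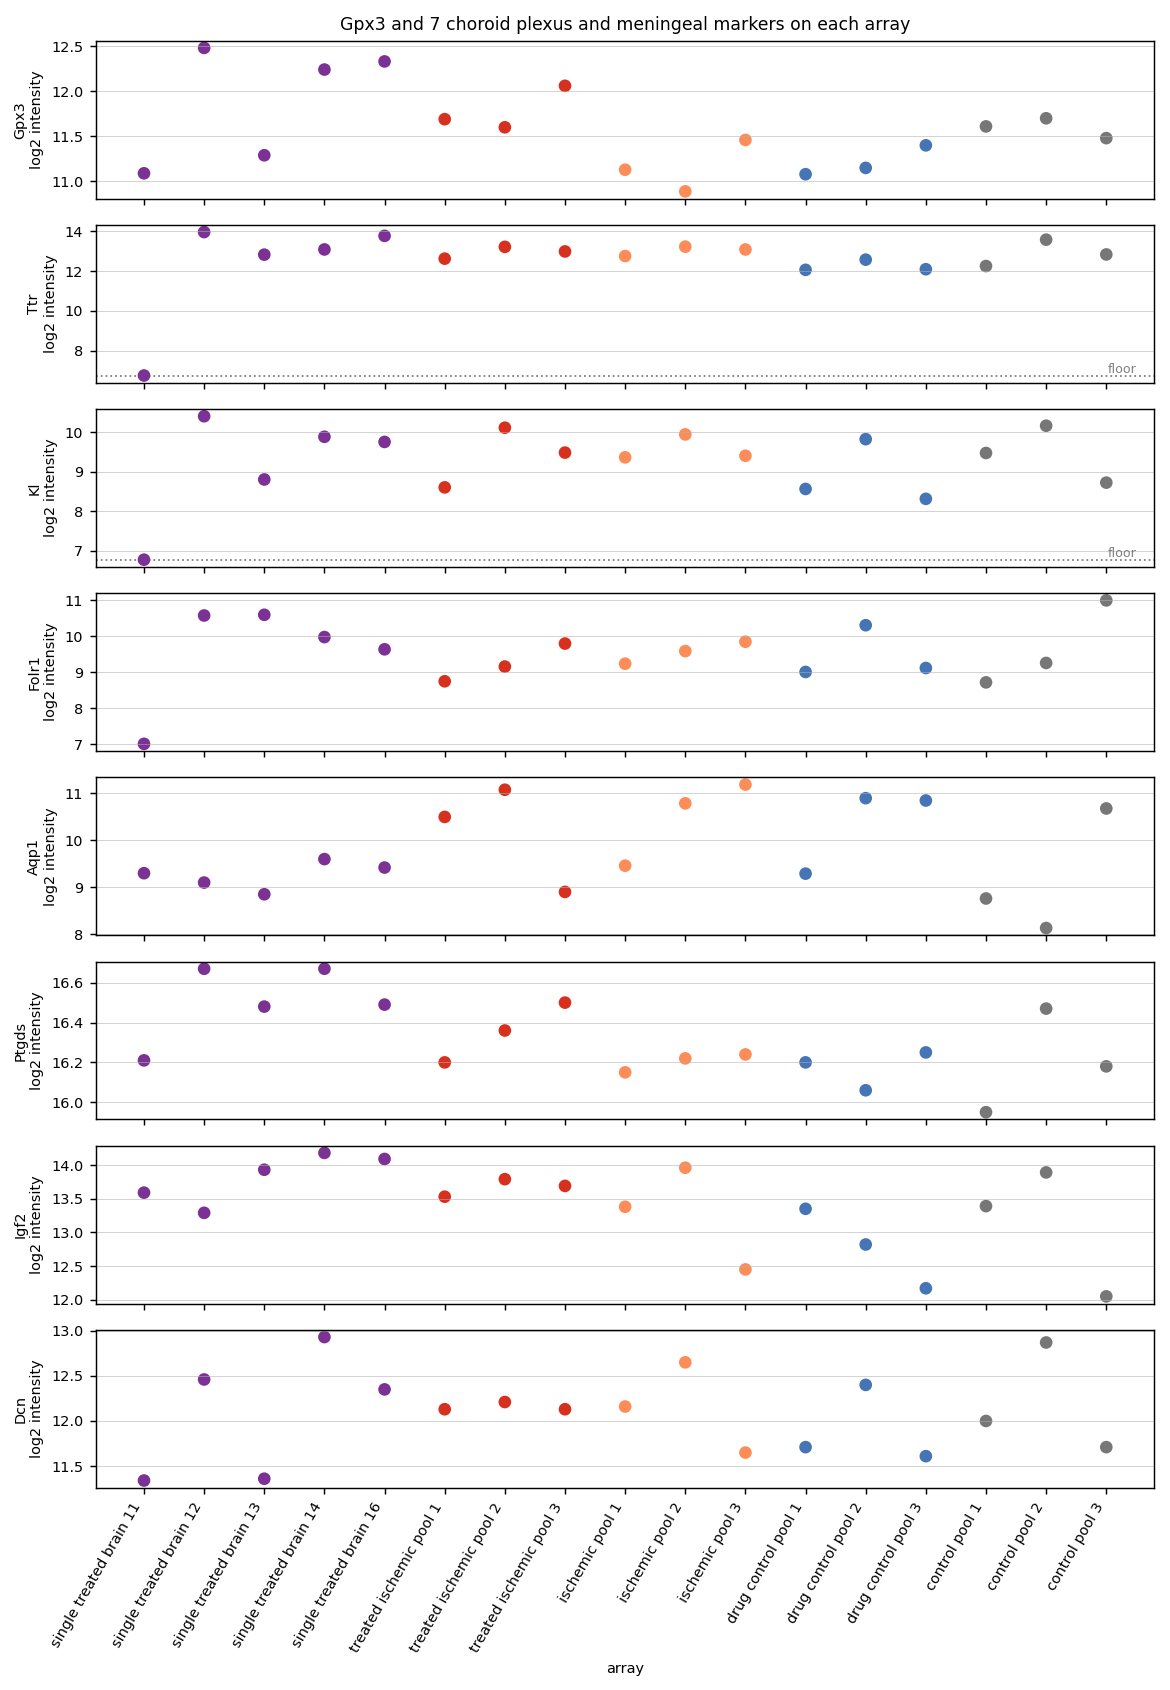
Log2 scaled intensity of Gpx3 and the 7 choroid plexus and meningeal markers on the array (vertical axes) on each of the 17 arrays (horizontal axis), coloured by group. Brain 11, lowest of the single brains in Gpx3 at 11.09, has Ttr and Kl at the floor of 6.77, and brains 11 and 13 share low Gpx3 and low Dcn, while Igf2 is lowest in brain 12 of the single brains.

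Across the 12 pools, the median share of the variance over all 10259 probe sets was 31.6% for replicate number and 18.8% for group. Sod1 had 85.5% of its variance between replicate numbers and 2.07% between groups, Sod2 87.0% and 7.38%, and Prdx2 on 99608_at 94.9% and 2.20%. Gpx4 (66.1%), Sod3 (60.8%), Prdx2 on 100331_g_at (45.2%) and Gsr (42.1%) were also above that median for replicate number. Cat was below it, at 18.8% on 160479_at and 4.16% on 161877_f_at. Pool 2 was the highest of its group in all 4 groups for Sod2, at 11.39 to 11.57, and for Prdx2 on 99608_at, at 13.10 to 13.43. Gpx3 and Gpx1 had more between groups, at 69.9% and 36.5%, than between replicate numbers, at 13.4% and 0.747%. There are 4 groups and 3 replicate numbers, so the 2 kinds of share are not on the same footing, and they were not compared by a test. The replicate shares take in the treated ischemic pools, which the numbers were not taken to pair. What a replicate number stands for is not stated in the labels. The actin 3'/5' signal ratio, a measure of RNA integrity, was 1.15 to 1.19 in pool 3 of the ischemic, drug control and control groups and 1.33 to 2.14 in their pools 1 and 2. It was 1.68, 1.29 and 1.34 in treated ischemic pools 1 to 3, where pool 2 was the lowest and yet the highest of its group in Sod1, Sod2 and Prdx2 on 99608_at. With this ratio as a covariate 0 of 99 member differences passed in limma (9 at an unadjusted p under 0.05), and its part in the variance shares was not tested.

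**Figure D4:**
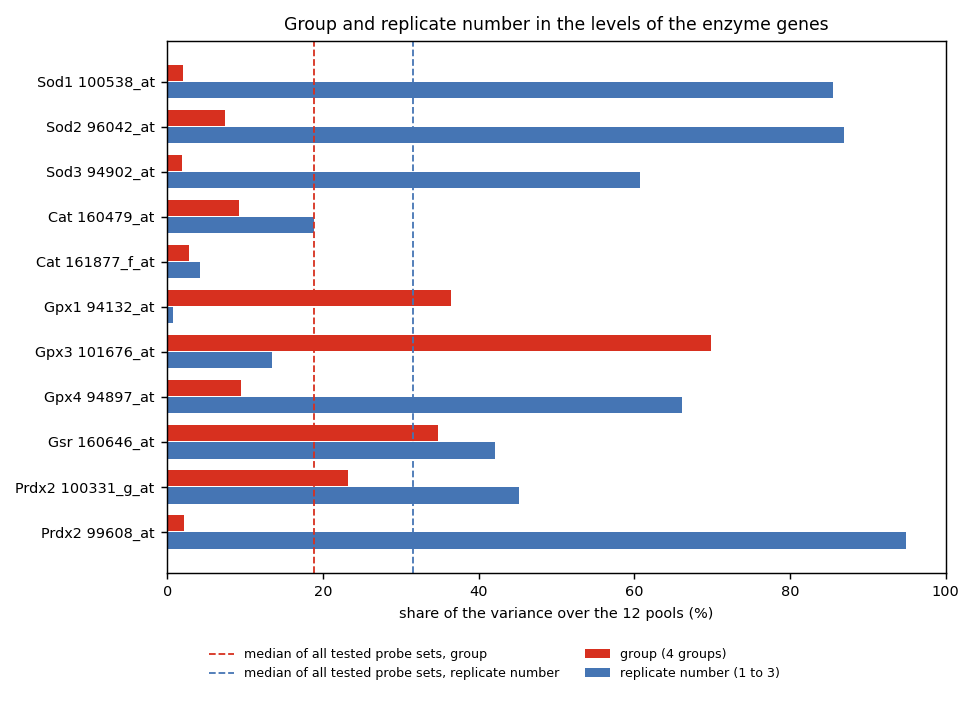
Share of the variance over the 12 pools (%, horizontal axis) that lay between the 4 groups (red bars) and between the replicate numbers 1 to 3 (blue bars) for the 11 member probe sets, with dashed lines for the medians of all probe sets tested. Sod1, Sod2 and Prdx2 on 99608_at have replicate bars of 85.5% to 94.9%, and Gpx3 has the longest group bar at 69.9%.

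The single treated brains were compared with the drug control pools, which differ from them in ischemia, and with the ischemic pools, which differ from them in the drug. In both cases the single brains also differ in being 1 brain each and in deposited scale, and these differences and the treatment cannot be told apart. Summed cell type markers also differed. Oligodendrocyte markers summed to 16.93 to 17.38 log2 in single brains against 16.58 to 16.89 in drug control pools, endothelial markers to 13.81 to 14.24 against 13.29 to 13.79, and astrocyte markers to 17.04 to 17.31 against 16.93 to 17.01, none with overlap. Against ischemic pools those 3 sums overlapped, while red cell markers (11.09 to 12.43 in single brains against 13.01 to 13.46) and neutrophil markers (12.77 to 13.24 against 13.30 to 13.56) did not. On all arrays, 4 of 10 neutrophil and 1 of 4 red cell markers were above the floor, so those 2 sums rest on part of their lists. The part of these cell types in the single-brain results was not tested. Against drug control pools 0 of 11 members passed, where 645 of 9907 probe sets (6.51%) did, and 2 of 11 had an unadjusted p under 0.05, against 28.1% of all. Against ischemic pools 0 of 11 members passed, where 182 of 9889 (1.84%) did, and 3 of 11 had an unadjusted p under 0.05, against 23.2%. Groups did not overlap for 2 of 11 (21.0% of all) and 3 of 11 (17.0% of all).

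Gpx1 was tight in the single brains, at 11.35, 11.34, 11.34, 11.49 and 11.29 in brains 11, 12, 13, 14 and 16, all below the drug control pools (11.68 to 11.88) and the ischemic pools (11.61 to 12.03). The difference was -0.39 log2 against drug control pools (SE 0.12, interval -0.66 to -0.12, limma adjusted p = 0.079) and -0.46 against ischemic pools (SE 0.14, interval -0.78 to -0.14, adjusted p = 0.113). Both sizes depend on the scaling, at -0.20 (adjusted p = 0.351) and -0.25 (adjusted p = 0.263) when arrays were scaled to the median of their values above 0. Against drug control pools the adjusted p was 0.0272 when dim probe sets were kept, and 0.05 to 0.351 at the other alternatives on one scale. Against control pools, which ran from 11.03 to 11.75, the single brains overlapped.

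Sod2 read 10.59, 10.69, 10.27, 10.94 and 11.09 in brains 11, 12, 13, 14 and 16, against 11.37, 11.57 and 11.07 in ischemic pools. Brain 16 lay just above ischemic pool 3, and the other single brains were lower than every ischemic pool. Single brains minus ischemic pools differed by -0.62 log2 (SE 0.22, interval -1.12 to -0.13, limma adjusted p = 0.148), and single brains minus drug control pools by -0.48 (SE 0.22, interval -0.97 to 0.02, adjusted p = 0.193). Scaled to the median of values above 0, these were -0.41 and -0.28. Gsr ran from 10.61 to 11.08 in single brains, above the ischemic pools (9.98 to 10.49), with a difference of 0.53 (SE 0.17, interval 0.14 to 0.93, limma adjusted p = 0.129). Prdx2 on 100331_g_at ran from 14.37 to 14.61 in single brains, above the drug control pools (14.02 to 14.23), with a difference of 0.31 (limma adjusted p = 0.137), or 0.51 at that scaling (adjusted p = 0.0654). Its other detected probe set, 99608_at, overlapped all pools. Gpx3 averaged 11.89 ± 0.65 in single brains (SD, n = 5), 0.73 above ischemic pools (SE 0.36, interval -0.10 to 1.56, limma adjusted p = 0.264).

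**Figure D5:**
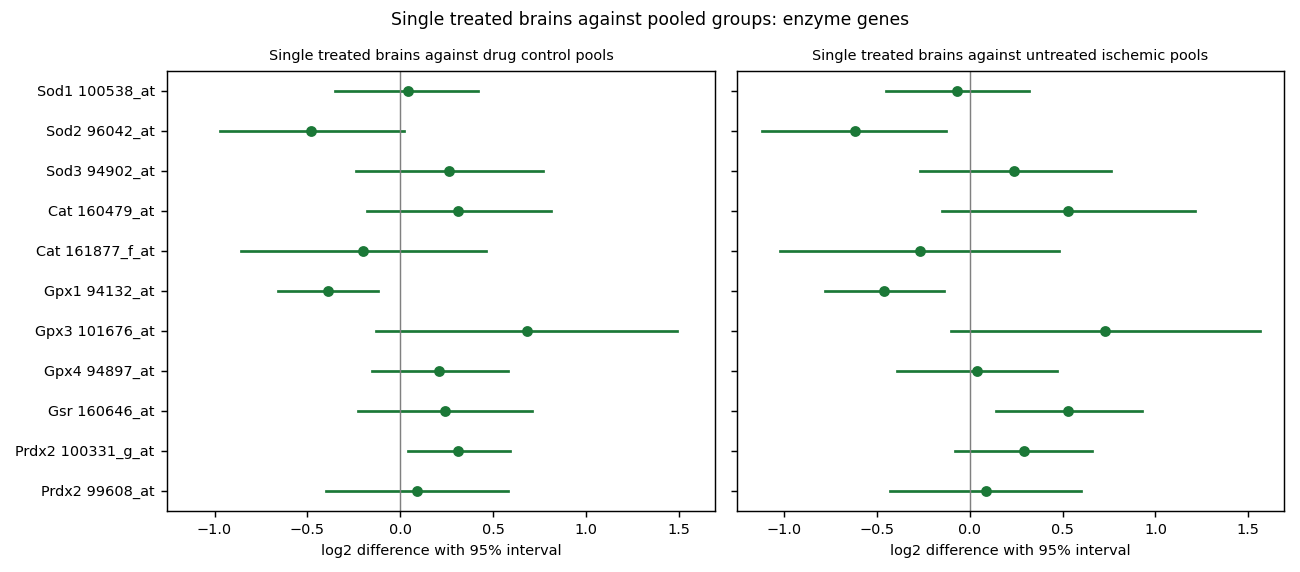
Log2 differences with 95% intervals from limma (horizontal axes) for the 11 member probe sets, 5 single treated brains minus 3 drug control pools (left) and minus 3 ischemic pools (right). Gpx1 lies below 0 in both panels at -0.39 and -0.46, and the interval of Gpx3 is the widest.

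Spread among the single brains was small for several enzymes. Sod1 had an SD of 0.08 over the 5 brains and 0.28 over the 12 pools, Gpx1 0.08 and 0.30, and Sod3 0.14 and 0.38. Gpx3 (0.65 over brains and 0.33 over pools) and Sod2 (0.32 and 0.23) had the larger SD in the brains. The pools span 4 treatments and the brains 1. Within single groups of 3 pools the SD was 0.26 to 0.36 in Sod1, 0.11 to 0.36 in Gpx1 and 0.29 to 0.51 in Sod3. It was 0.11 to 0.28 in Gpx3 and 0.17 to 0.31 in Sod2. The source of these differences in spread was not tested.

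Genes that support these enzymes were described in 5 lists, with the brightest probe set of each gene. None passed in any comparison of pools. Of 9 other glutathione peroxidases and peroxiredoxins 5 were tested, with a median of 0.04 log2 for ischemia over both arms, against 0.014 over all probe sets. Of 14 thioredoxins and glutaredoxins 9 were tested, with a median of 0.02. Of 27 genes of glutathione synthesis and transfer 20 were tested (median 0.06), of 11 genes of NADPH supply 8 (median 0.03), and of 16 genes of metal and selenium supply 13 (median 0.10). The smallest p in the thioredoxin list was that of Txnip, the thioredoxin inhibitor, at 0.57 log2 (SE 0.21, limma adjusted p = 0.755), and Txnrd1, thioredoxin reductase, had 0.29 (SE 0.15, adjusted p = 1). The zinc exporter gene Slc30a1 had 0.53 (SE 0.15, adjusted p = 0.402), the cystine transporter gene Slc7a11 0.61 (SE 0.28, adjusted p = 0.998), limited by the floor in 2 of 6 ischemic and 4 of 6 non-ischemic pools, and the glutathione transferase gene Mgst2 1.01 (SE 0.47, adjusted p = 0.998). Other values for ischemia over both arms were 0.20 in Nnt, the mitochondrial transhydrogenase gene (adjusted p = 1), -0.26 in Prdx4 and -0.10 in Prdx3, the peroxiredoxin genes of the endoplasmic reticulum and mitochondria (adjusted p = 1 each). Sephs1, a gene of selenium metabolism, was at the floor in 4 of 6 ischemic and 2 of 6 non-ischemic pools, so its -1.08 (adjusted p = 0.816) is not a measured size. Of the NADPH list, Pgd, of the pentose phosphate pathway, had 0.89 (SE 0.83, adjusted p = 1), with 1 of 6 ischemic and 2 of 6 non-ischemic pools at the floor.

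In the single-brain comparisons a few of these genes passed. Srxn1, sulfiredoxin, which restores overoxidised peroxiredoxins, read 11.99, 12.09, 12.22, 12.12 and 11.97 in brains 11, 12, 13, 14 and 16, against 11.30 to 11.63 in drug control and 11.24 to 11.49 in ischemic pools. The groups did not overlap, and Srxn1 rose by 0.61 log2 against drug control pools (SE 0.13, limma adjusted p = 0.0358) and by 0.75 against ischemic pools (SE 0.13, adjusted p = 0.04). Treated ischemic pool 3, at 12.00, reached the level of the single brains, while treated ischemic pools 1 and 2 read 11.42 and 11.67. The first call was lost without drug control pool 1, the array with conflicting labels (0.52, adjusted p = 0.0561) and without drug control pool 3 (adjusted p = 0.0878), and both were lost without any 1 of the 5 brains (adjusted p of 0.0611 to 0.0799 and of 0.0804 to 0.0959). Idh2, the mitochondrial NADPH-producing isocitrate dehydrogenase, rose by 0.61 against drug control pools (SE 0.14, adjusted p = 0.0466) and lost its call without any 1 of the 8 arrays (adjusted p of 0.0578 to 0.0891) and with the actin ratio as a covariate (adjusted p = 0.0532).

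Among genes of metal and selenium supply, Slc39a4, a zinc importer gene, read 8.81 to 9.99 in single brains, against 11.12 to 11.53 in drug control and 10.44 to 11.73 in ischemic pools. It fell by 2.04 log2 against drug control pools (limma adjusted p = 0.00924) and by 1.83 against ischemic pools (adjusted p = 0.0465). The second call was lost without any 1 brain and without ischemic pool 1 or 3 (adjusted p of 0.0509 to 0.105), with quantile normalization (adjusted p = 0.0601) and with dim probe sets kept (adjusted p = 0.0667). Treated ischemic pools, of the same treatment as the single brains, read 11.61, 10.77 and 9.68 on that probe set, and control pools spanned 7.67 to 11.59. Ccs, the copper chaperone gene for Sod1, read 9.39 to 9.97 in single brains against 10.49 to 10.99 in drug control pools and fell by 1.06 (adjusted p = 0.02), a call lost without drug control pool 3 (adjusted p = 0.0683). Against ischemic pools it did not pass (-0.94, adjusted p = 0.119). Treated ischemic pools read 11.03, 10.26 and 9.66 in Ccs and control pools 9.84, 9.39 and 11.15, so both groups overlapped the single brains. Slc39a4 had the same order over the pools of these groups, with control pools at 9.89, 7.67 and 11.59. Whether the falls of Ccs and Slc39a4 are separate was not tested. Sephs1 was at the floor in all 5 single brains and read 7.51, 9.01 and 9.04 in drug control pools. It was also at the floor in treated ischemic pools 1 and 3, ischemic pools 1 and 2 and control pools 1 and 2, so the drug control pools were the 1 group with no array at the floor. Its difference of -1.75 (adjusted p = 0.0272, and 0.0556 to 0.0605 without any 1 brain) is limited by the floor, which also removes the spread of the single brains. By list, 1 of 9 thioredoxin and glutaredoxin genes, 1 of 8 NADPH genes and 3 of 13 metal and selenium genes passed against drug control pools. Against ischemic pools 1 of 9 and 1 of 12 passed in the first and the last of these lists and 0 of 8 in the NADPH list. No gene passed in the other 2 lists, against 6.51% and 1.84% of all probe sets.

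The probe sets whose levels over the 12 pools were most like those of the 2 members with the largest SD on their brightest probe set (0.45 and 0.38 log2) are given as a description. For Cat (161877_f_at) they were Auh, C77080 and Plp2, with Pearson's r of 0.84, 0.83 and 0.80. For Sod3 they were Dynlt3, Slc23a3 and Ddx21, with 0.91, 0.89 and 0.87. The pools share their replicate numbers, and these are the highest of all probe sets tested.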

How the data were processed

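RNA of 17 mouse brain samples was measured on arrays with 12488 probe sets. The values deposited by the authors are intensities on a linear scale, 1 per probe set and array; between 15.2% and 19.3% of an array's values were below 0, and how they were scaled is not stated. Each array was multiplied to a 2 to 98% trimmed mean of 2500, floored at the 25th percentile of the scaled pools and log2-transformed. The 66 array controls were left out. Probe sets that exceeded the floor on 3 or more arrays of a fit were tested using limma (version 3.58.1, R version 4.3.3): the 12 pools in 1 fit of 4 groups (10259 probe sets), and the single brains against each of 2 groups of pools in separate fits (9907 and 9889). Benjamini-Hochberg adjustment ran over all probe sets of a comparison, with a threshold of 0.05. All p values are two-sided and measure the spread between these arrays. The fit was tested on simulated data.

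Symbols are those of the platform annotation: 10855 probe sets had 1 symbol, 396 several and 1237 none. Groups were taken from titles, and single brains were set apart by their descriptions. The named genes were all members, the genes of 5 pathway lists past the threshold or otherwise the 2 with the smallest p for ischemia over both drug arms, 3 ischemia-responsive genes, and the 3 probe sets most like the brightest probe set of each of the 2 most variable members. The members and lists were chosen with earlier results of these data known. Deviations of same-numbered pools correlated at 0.33 to 0.57 among control, drug control and ischemic pools, so numbers pair these groups. With treated ischemic pools they correlated at -0.34 to 0.40. There number 3 gave -0.34, -0.11 and -0.16, and numbers 1 and 2 gave 0.06 to 0.40. Numbers were therefore not taken to pair the treated ischemic pools. Alternatives were other scaling, floors, filters, labels, blocks, an actin covariate, an intensity trend and leaving out each array.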

Additional observations from a re-analysis of the deposited data

Results flagged for a closer look

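The Gpx3 response to ischemia (101676_at) is listed because every ischemic pool was below every control pool without the drug, and every treated ischemic pool was above every drug control pool with it. The difference between these 2 ischemia differences was 1.01 log2 (limma unadjusted p = 0.0058, adjusted p = 1), so it was tested and did not pass over 10259 probe sets. No single brain stood outside its group of 5 in any of 13 probe sets examined by the gap to its nearest neighbour over the range (95% critical value 0.71). The closest was Gpx1 in brain 14, at 0.700.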

How the results depend on the processing

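Of the 99 member results, 1 passed among 1870 values computed at alternatives that keep all arrays on one scale: Gpx1 in single brains minus drug control pools with no filter on dim probe sets (-0.39, adjusted p = 0.0272), which moved that comparison's member count to 1. Leaving out each array moved no member count (0 to 0 in all 9 comparisons; 836 member values). The replicate block gave 0 passing of 77 member values. Over all probe sets it gave 35 calls against 22 for ischemia without the drug and 0 against 1 for the drug without ischemia. The Gpx3 difference between the 2 ischemia differences, which takes in the treated ischemic pools, was 1.01 with the replicate block (limma unadjusted p = 0.00331, adjusted p = 0.953). Over the alternatives on one scale, calls among all probe sets ran from 1 to 35 for ischemia without the drug, 1 to 16 with the drug, 19 to 65 over both arms, 0 to 1 for the drug after ischemia, 0 to 2 without ischemia, 0 to 1 for the drug over both arms and for the interaction, 234 to 1164 for single brains against drug control pools and 48 to 514 against ischemic pools. Leaving out the 2 arrays with conflicting labels was not run for single brains against ischemic pools, which hold neither. Values as deposited, with no common scale, moved the median of all probe sets to -2.48 (ischemia with the drug), -2.51 (drug after ischemia), -3.76 and -3.77 (single brains against drug control and ischemic pools), and member calls rose to 10, 8, 11 and 11. Those calls carry the scale shift, and 28 member values turned to falls. For ischemia with the drug these were Cat 161877_f_at -2.35, Gpx4 -2.38, Gsr -2.43, Prdx2 -2.39 and -2.54, Sod1 -2.57, Sod2 -2.61 and Sod3 -2.56. For the drug after ischemia they were Cat 161877_f_at -2.42, Gpx4 -2.56, Prdx2 -2.41 and -2.55 and Sod3 -2.58. For single brains against drug control pools they were Cat 160479_at -3.57, Gpx3 -3.20, Gpx4 -3.67, Gsr -3.64, Prdx2 -3.57 and -3.79, Sod1 -3.85 and Sod3 -3.62. Against ischemic pools they were Cat 160479_at -3.35, Gpx3 -3.16, Gpx4 -3.84, Gsr -3.35, Prdx2 -3.59 and -3.80 and Sod3 -3.64. Srxn1 (-3.27 and -3.13) and Idh2 (-3.27) turned likewise, and Hspa1b, Fos and Atf3 kept their direction (3.28, 1.85 and 1.85, adjusted p = 0.194 each). With 3 pools a group, 95% intervals for ischemia over both arms ran from 0.840- to 1.32-fold in Gpx3, the narrowest, to 0.494- to 1.43-fold in Cat 160479_at, the widest. Changes within a member's own interval are compatible with its values. The intervals are not adjusted for the number of probe sets, so a change outside them could also fail to pass.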
